A study of Oncorhynchus mykiss with 12 samples.

Results

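The red-cell miRNAs miR-451 and miR-144 were followed through the livers of 12 adult wild-type rainbow trout (Oncorhynchus mykiss). Of the 1696 sequences in the deposited table, 2 were selected by name, dre-miR-451_R-1 and fru-miR-144_L+1R-1. The prefixes name the fish species each trout sequence was matched to, and the endings are marks of the authors for length and base differences. Fish had been fasted for 4 days, or acutely refed. The refed fish ate either a carbohydrate-free meal, the noCHO group, or one rich in carbohydrate, the highCHO group. Fasted fish were numbers 7, 8, 10 and 13, noCHO fish 20, 21, 31 and 33, and highCHO fish 38, 45, 49 and 50, with 1 small-RNA library per fish. All groups shared the same labelled strain, tissue and genotype, and the labels state neither the time since the meal nor whether the blood was flushed out of the liver.

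In vertebrates miR-144 and miR-451 are cut from a single transcript whose gene is switched on by the erythroid factor GATA1, and both accumulate as red cells mature. In zebrafish, miR-451 is needed for normal red-cell maturation, and miR-144 has been tied to globin synthesis in embryos. Fish red cells circulate with a nucleus, and a liver piece carries the blood of its vessels and sinusoids. In mammals miR-451 is made in an unusual way: its hairpin is too short for Dicer, and the slicer Argonaute2 cuts it before the end is trimmed, whereas miR-144 is released by Dicer as a pair of arms. In a bulk liver sample, more or fewer red cells and more or less of a miRNA per cell cannot be told apart.

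The sequences below are shown because both members, and the other pieces of their hairpins, carry the results. They are written 5′ to 3′ with T for U, as deposited, and capitals mark the seed (bases 2 to 8).
dre-miR-451_R-1: aAACCGTTaccattactgagt
fru-miR-144_L+1R-1: cTACAGTAtagatgatgtac
pol-miR-144-5p_1ss11TA: gGATATCAtcatatactgtaagt
dre-miR-451_R-3_1ss1AT: tAACCGTTaccattactga
The labels do not explain the marks, and L+1 in fru-miR-144_L+1R-1 was read here, from sequences with like marks, as 1 additional 5′ base. If so, counted from its second base, the seed is the stretch in capitals here: ctACAGTATagatgatgtac. No other sequence in the table held either reading of the miR-144 seed, while 3 others held the seed of miR-451. One of them, dre-miR-451_R-3_1ss1AT, has the substitution A1T (positions from 1 at the 5′ end of dre-miR-451_R-1) and ends 2 bases earlier.

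The miR-451 hairpin was found piecewise. Searching for shared runs of at least 14 bases added 2 predicted candidates to the 6 sequences named for miR-451, which makes 8 in all. In the next sequences, shown because together they span the hairpin, capitals mark the mature miR-451.
PC-5p-5196_150: AAACCGTTACCATTACTGAGTtttagc
dre-mir-451-p3_1ss6TC: tttagcaatggtaagggttct
PC-3p-3965_216: ttttagcaatggtaagggttct
Joined hairpin: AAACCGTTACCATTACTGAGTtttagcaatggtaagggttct
PC-5p-5196_150, of 27 nt, is the mature sequence with 6 more bases, and it shares 7 bases with PC-3p-3965_216. The joined run of 42 nt folded in RNAfold into 16 base pairs around a 3-base loop, with a predicted energy of −17.1 kcal/mol. In that fold 16 of the 21 bases of mature miR-451 are paired, its last bases lie in the loop, and PC-5p-5196_150 reads through the loop into the opposite arm. For miR-144 the table held 3 sequences, and its 2 arms formed 17 base pairs with each other when paired by RNAduplex.

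Most reads of each hairpin fell on the member itself. Of all counts on the miR-451 hairpin over the 12 libraries, 90.1% were dre-miR-451_R-1 and 6.20% dre-miR-451_R-3_1ss1AT. Of the counts on miR-144, 91.0% were fru-miR-144_L+1R-1 and 8.95% its partner arm pol-miR-144-5p_1ss11TA. The partner arm stood at 9.43 ± 3.09% of fru-miR-144_L+1R-1 (SD, n = 12), from 5.70 to 16.4%. By group this percentage was 9.55 ± 1.32 in fasted, 11.8 ± 3.82 in noCHO and 6.99 ± 1.86 in highCHO fish (SD, n = 4 each). The log2 difference of the highCHO group was −0.47 from fasted and −0.72 from noCHO fish, which did not pass (two-sided exact permutation p = 0.0857 and 0.0571, adjusted p = 0.129 for both). On the miR-451 hairpin, the 2 sequences of the opposite arm together came to 2.07 ± 0.449% of dre-miR-451_R-1 (SD, n = 12). The longer PC-5p-5196_150 came to 1.77 ± 0.792% of it, from 0.377 to 2.74%.

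The libraries held between 197684 (highCHO fish 49) and 3057706 (noCHO fish 33) counts on miRNA sequences. The hepatocyte miRNA dre-miR-122_R-1 made up 22.6 to 35.7% of them, so the defining miRNA of the labelled tissue was present in every library. Inserts under 15 nt took 7.63 to 11.6% of adapter-containing reads in fasted, 6.18 to 13.0% in noCHO and 14.2 to 32.2% in highCHO libraries. By the share of 1 let-7c sequence among reads resembling let-7a, 2 sets of libraries were told apart. They were split at the widest gap in this share (on a log scale), from the same counts. No label names these sets, and what lies behind them is not known. Set 1 held all fasted fish with noCHO fish 20 and 21 (0.941 to 1.42%), and set 2 held all highCHO fish with noCHO fish 31 and 33 (3.32 to 3.80%). Since no set held both fasted and highCHO fish, they cannot be compared within one.

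Levels are given as CPM, counts scaled to library size, after TMM scaling, an edgeR method that sets libraries to a common scale. The members ranked 53rd and 58th by mean CPM of the 340 sequences that passed the filter on low counts. miR-451 stood on 212 counts (highCHO fish 49) to 4091 (noCHO fish 31), and miR-144 on 261 to 2903 in the same fish.

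In fasted livers dre-miR-451_R-1 was at 1770 CPM in fish 7, 1282 in fish 8, 2473 in fish 10 and 707 in fish 13. In noCHO livers it was at 898 in fish 20, 886 in fish 21, 2027 in fish 31 and 787 in fish 33. In highCHO livers it was at 1065 in fish 38, 679 in fish 45, 937 in fish 49 and 1561 in fish 50. Fasted fish 10 was the highest and highCHO fish 45 the lowest, 3.64-fold apart, and every pair of groups overlapped. Among noCHO fish, number 31 stood alone, above all others of its group.

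fru-miR-144_L+1R-1 was at 1286 CPM in fish 7, 855 in fish 8, 1994 in fish 10 and 665 in fish 13 of the fasted group. It was at 705 in noCHO fish 20, 653 in fish 21, 1438 in fish 31 and 573 in fish 33. It was at 680 in highCHO fish 38, 993 in fish 45, 1154 in fish 49 and 1507 in fish 50. The same fish led each group as for miR-451, namely 10, 31 and 50, and here too every pair of groups overlapped. The lowest fish was also shared in the fasted and noCHO groups (13 and 33) but not in the highCHO group (45 for miR-451, 38 for miR-144).

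**Figure D1:**
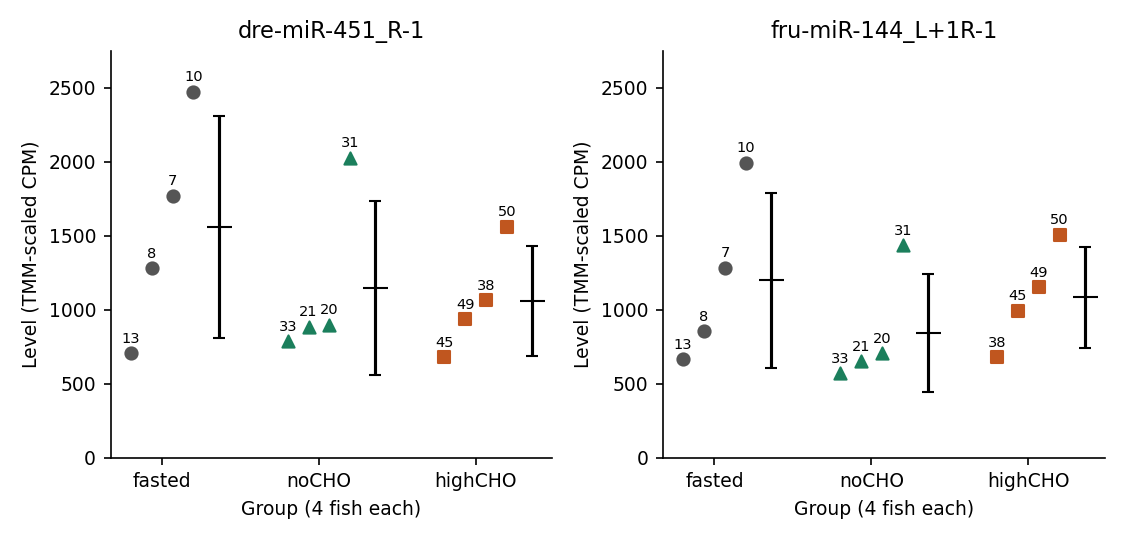
Level of dre-miR-451_R-1 (left) and fru-miR-144_L+1R-1 (right) in CPM after TMM scaling, with 1 numbered point per fish and a bar for the group mean ± SD (n = 4 each). Fasted fish 10, noCHO fish 31 and highCHO fish 50 head their groups in both panels, and the groups overlap.

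The first comparisons ask whether the red-cell miRNAs of the liver differ between nutritional states. Group means of miR-451 were 1558 ± 749 CPM in fasted, 1150 ± 587 in noCHO and 1061 ± 370 in highCHO fish (SD, n = 4 each). Each gap between neighbouring means in this order was smaller than the SD of either group. The fitted log2 change of miR-451 was −0.44 in noCHO against fasted fish (SE 0.41, 95% interval −1.32 to 0.44, adjusted p = 0.993). It was −0.55 in highCHO against fasted fish (SE 0.41, −1.44 to 0.33, adjusted p = 0.414) and −0.12 in highCHO against noCHO fish (SE 0.41, −0.996 to 0.764, adjusted p = 0.902). For both refed groups together against fasted it was −0.50 (SE 0.34, −1.24 to 0.25, adjusted p = 0.542).

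For miR-144 the means were 1200 ± 590 CPM in fasted, 1083 ± 344 in highCHO and 842 ± 401 in noCHO fish (SD, n = 4 each), so highCHO and noCHO fish stood in the other order, again within the spread. Its log2 change was −0.51 in noCHO against fasted fish (SE 0.39, −1.35 to 0.33, adjusted p = 0.942). In highCHO against fasted fish it was −0.15 (SE 0.39, −0.98 to 0.69, adjusted p = 0.833), and in highCHO against noCHO fish 0.36 (SE 0.39, −0.48 to 1.20, adjusted p = 0.576). For both refed groups against fasted it was −0.33 (SE 0.33, −1.04 to 0.39, adjusted p = 0.675). The intervals were wide, and over both members they reached from −1.44 to 1.20.

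Thus 0 of the 2 members passed in any of the 4 comparisons with the edgeR quasi-likelihood test and Benjamini-Hochberg adjustment over the 340 sequences. Among all 340 sequences tested, the share called was 0% for noCHO against fasted, 6.18% for highCHO against fasted, 2.35% for highCHO against noCHO and 2.06% for both refed groups against fasted. For noCHO against fasted, 23 sequences had an unadjusted p under 0.05, and DESeq2 called 2. Each comparison shares fish with each of the others, so their values are not independent. With library set as a term, the miR-451 change moved to −0.80 in noCHO against fasted, −1.21 in highCHO against fasted, −0.41 in highCHO against noCHO and −1.01 in refed against fasted fish (adjusted p = 0.598, 0.356, 0.665 and 0.409). In the same order the miR-144 change moved to −0.82, −0.71, 0.11 and −0.77 (adjusted p = 0.572, 0.581, 0.904 and 0.492), so none passed. Only the noCHO group holds both sets, so the set term is estimated from fish 20 and 21 against fish 31 and 33. Fish 31 was the highest noCHO fish in both members. The values with this term carry that noCHO gap over to the other groups and are not changes freed of the set. With the percentage of inserts under 15 nt as a term, the miR-144 change was −0.47 in highCHO against fasted and 0.046 in highCHO against noCHO fish (adjusted p = 0.684 and 0.990). Leaving out highCHO fish 38 turned the miR-144 change in highCHO against fasted fish to 0.03. Leaving out fasted fish 10 turned it to 0.28 and that in refed against fasted fish to 0.07, and leaving out noCHO fish 31 turned the miR-451 change in highCHO against noCHO fish to 0.36.

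The list drawn up for red cells went by the names miR-451, miR-144 and miR-486, and miR-486 had no tested sequence. On this list 5 sequences were tested, both members included. All 5 had lower fitted values in noCHO than in fasted fish (median log2 −0.32, against 0.02 over all 340), and 0 were called. All 5 were lower in highCHO than in fasted fish (median −0.28, against 0.03) and 0 were called. Of the 5, 2 were higher in highCHO than in noCHO fish (median −0.12, against a median near 0) and 0 were called. These 5 are pieces of 2 hairpins, so their signs are not independent. Off the list, the hairpin piece PC-3p-3965_216 had a log2 change of −0.12 in noCHO and −0.18 in highCHO against fasted fish. PC-5p-5196_150 had −0.06 and 0.27 in the same order, and neither piece was called. The summed level of the list was 1487 to 4829 CPM in fasted, 1487 to 3804 in noCHO and 1790 to 3327 in highCHO fish.

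The spread between fish of the same group was above the middle of the table. The SD between fish within groups was 0.64 for miR-451 and 0.60 for miR-144 on the log2 scale, against a median of 0.46 over the 340 sequences. They ranked 103rd and 119th from the most variable, so neither stood at the extreme.

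The second question was whether both members vary together from fish to fish. Across the 12 libraries, log2 CPM of miR-451 and miR-144 had a Pearson r of 0.817 (permutation p = 0.00172, adjusted p = 0.0258 over 15 relations) and a Spearman rho of 0.762 (permutation p = 0.00547, adjusted p = 0.082). With group means subtracted r was 0.864 (exact permutation within groups, p = 0.00485). Without fasted fish 10 and noCHO fish 31, the 2 farthest from the median of miR-451, r was 0.652 (permutation p = 0.0427, n = 10). Within set 1 r was 0.970 (exact permutation p = 0.00417, n = 6), and within set 2 it was 0.663 and did not pass (exact permutation p = 0.161, n = 6). Leaving out any 1 library gave r from 0.732 to 0.895.

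**Figure D2:**
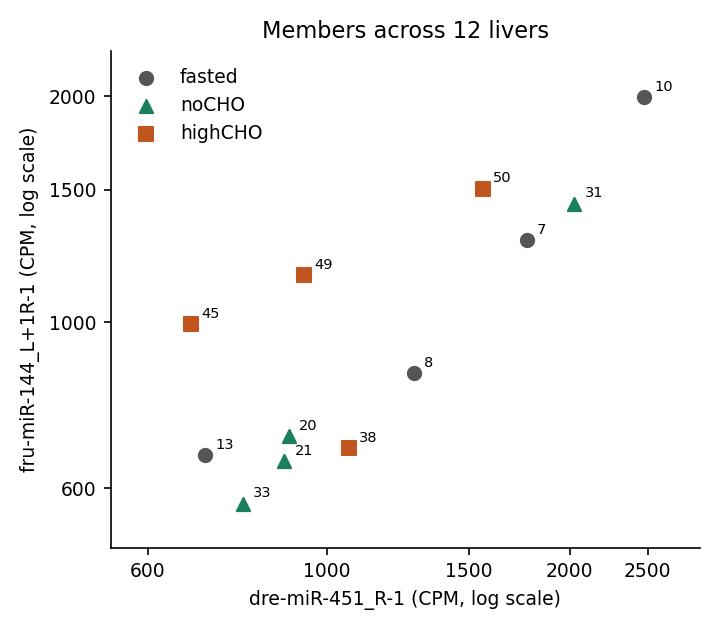
Level of fru-miR-144_L+1R-1 against dre-miR-451_R-1 in the 12 livers, both in CPM on log axes, with fish numbers. Both levels rise together in fasted and noCHO fish, up to fasted fish 10 at the top right, and highCHO fish 45 and 49 lie above the others of similar miR-451 level.

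The ratio of both counts within a library needs no scaling between libraries. In fasted fish there were 1.38 (fish 7), 1.50 (fish 8), 1.24 (fish 10) and 1.06 (fish 13) counts of miR-451 for each count of miR-144. In noCHO fish the ratio was 1.27 (fish 20), 1.36 (fish 21), 1.41 (fish 31) and 1.37 (fish 33), the narrowest range of the 3 groups. In highCHO fish it was 1.57 (fish 38), 0.685 (fish 45), 0.812 (fish 49) and 1.04 (fish 50). Fish 45 and 49 were the only ones of the 12 in which miR-144 exceeded miR-451, and fish 38 had the highest ratio of all.

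Mean ratios were 1.30 ± 0.187 in fasted, 1.35 ± 0.0576 in noCHO and 1.02 ± 0.389 in highCHO fish (SD, n = 4 each). The log2 difference was −0.40 for highCHO against fasted, −0.47 for highCHO against noCHO and 0.07 for noCHO against fasted fish. None of these passed a two-sided exact permutation test (p = 0.229, 0.143 and 0.571, adjusted p = 0.343, 0.343 and 0.571). The smallest p that 4 against 4 fish allow is 0.0286. Without highCHO fish 38 the difference from noCHO fish was −0.70, with no overlap (unadjusted exact permutation p = 0.0286, the smallest these fish allow). Leaving out any other fish of this pair of groups gave p from 0.229 to 0.286 in the same test. Fish 49 and 45, the libraries with a ratio under 1, also had the highest percentages of inserts under 15 nt (32.2 and 21.4%), and the part of this in the ratio was not tested.

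**Figure D3:**
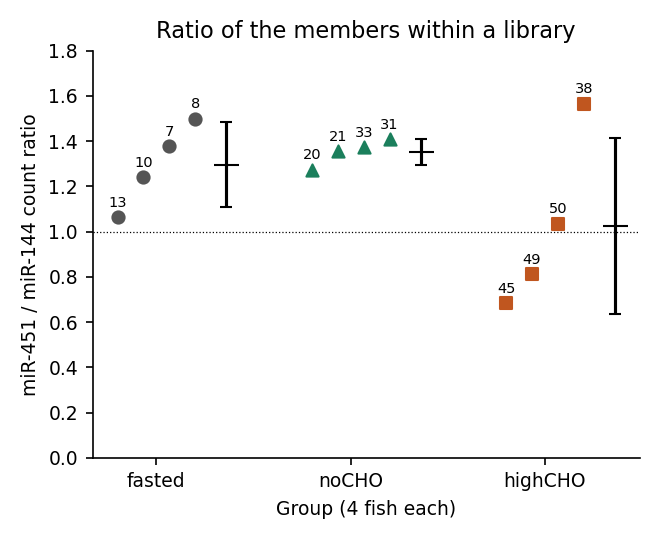
Counts of dre-miR-451_R-1 divided by counts of fru-miR-144_L+1R-1 in each library, with fish numbers and the group mean ± SD (n = 4 each). A dotted line marks equal counts, and highCHO fish 45 and 49 lie under it.

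Which other liver sequences followed miR-451 was asked in a fit across all of them, with group in the model, for the log2 change in a sequence per log2 unit of miR-451. Of 339 sequences, 6 rose with miR-451 (1.77%) and 0 fell (0%), while 24 had an unadjusted p under 0.05 in either direction. All but 1 of the 6 belonged to the hairpins of miR-451 and miR-144. From the miR-451 hairpin came dre-miR-451_R-3_1ss1AT with a slope of 1.13 (SE 0.20, adjusted p = 0.0297), dre-mir-451-p3_1ss6TC with 0.97 (SE 0.20, 0.0336) and PC-3p-3965_216 with 1.05 (SE 0.23, 0.0409). These are pieces of the same hairpin as miR-451 itself, so their slopes are no independent result. The last 2 differ only by 1 base at the 5′ end. With these pieces and PC-5p-5196_150 left out of the fit, 2 of 335 sequences were called, fru-miR-144_L+1R-1 among them. From miR-144 came the member fru-miR-144_L+1R-1 with 0.80 (SE 0.15, adjusted p = 0.0297) and its partner arm pol-miR-144-5p_1ss11TA with 0.80 (SE 0.17, 0.0409).

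The remaining one was dre-miR-2188-5p_R+1, a miRNA described in fish and other vertebrates outside the mammals, with a slope of 0.91 (SE 0.17, adjusted p = 0.0297). Its sequence is shown because it was the only one called from outside both hairpins, with the seed in capitals.
dre-miR-2188-5p_R+1: aAGGTCCAacctcacatgtcct
It shares its seed with no other sequence in the table and has no seed in common with either member. It was at 949 CPM in fish 7, 716 in fish 8, 1097 in fish 10 and 376 in fish 13 of the fasted group. The noCHO values were 466 in fish 20, 558 in fish 21, 911 in fish 31 and 314 in fish 33. The highCHO values were 674 in fish 38, 314 in fish 45, 862 in fish 49 and 846 in fish 50. Fasted fish 10 and noCHO fish 31 again headed their groups, and fasted fish 13 and noCHO fish 33 again were lowest. Its other arm, dre-miR-2188-3p_L+1_2ss13TC14AG, had a slope of 0.51 (SE 0.18, adjusted p = 0.383) and did not pass.

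**Figure D4:**
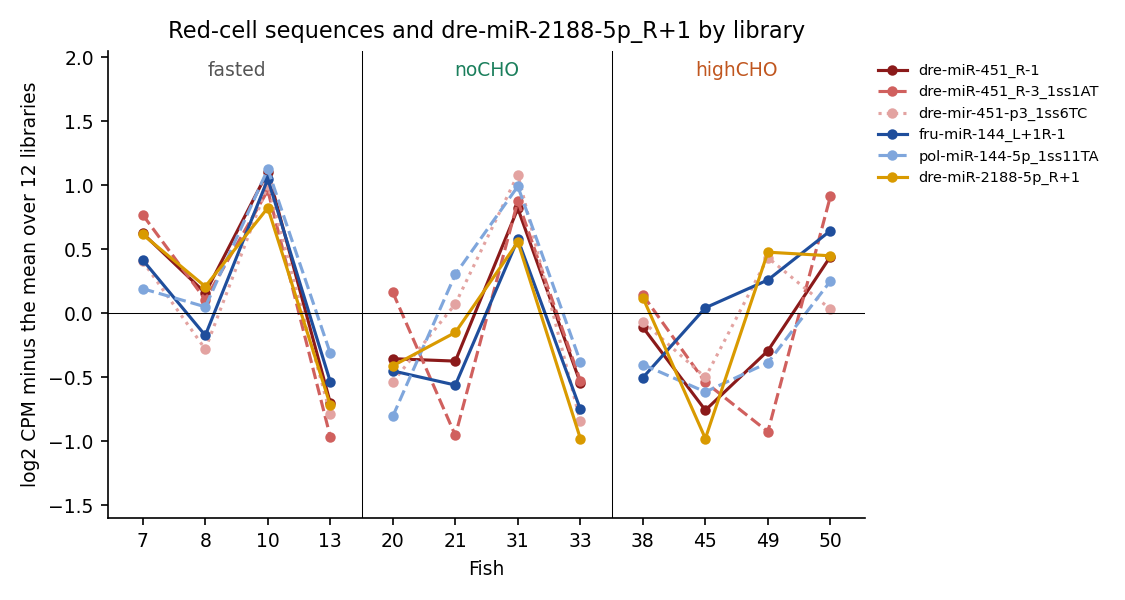
Level of each sequence in each fish as log2 CPM minus its own mean over the 12 libraries, for dre-miR-451_R-1, dre-miR-451_R-3_1ss1AT and dre-mir-451-p3_1ss6TC (red), both miR-144 arms (blue) and dre-miR-2188-5p_R+1 (yellow). Within the fasted and the noCHO group these 6 sequences are highest in fish 10 and fish 31, and in the highCHO group the highest fish differs between them.

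These calls changed with the libraries and terms that entered the fit. With library set as a further term 0 of 339 were called, and the slope of miR-144 was then 0.80 (adjusted p = 0.0628). Leaving out 1 library left 0 calls without any one of fasted fish 7, 8, 10 or 13, noCHO fish 31 or 33, or highCHO fish 45, and 1 without noCHO fish 20. There were 4 calls without highCHO fish 49 or without fish 50, 6 without noCHO fish 21 and 8 without highCHO fish 38. The slope of miR-144 itself stayed between 0.75 and 0.89 over these fits, with adjusted p from 0.00309 to 0.315. With log2 CPM of miR-144 in place of miR-451, 0 of 339 were called (33 at an unadjusted p under 0.05), and miR-451 had the smallest p of all with a slope of 0.90 (SE 0.18, adjusted p = 0.114).

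PC-5p-5196_150, the longer piece that reads into the opposite arm, did not pass. Its slope on mature miR-451 was 0.57 (SE 0.33, adjusted p = 0.747) on 2.50 to 75.5 counts per library, and its difference from the other slopes was not tested. It ranged from 3.38 CPM in noCHO fish 20, where it had 3 counts, to 38.2 in highCHO fish 50, and without fish 20 the lowest was 8.84 in highCHO fish 49. In fasted fish 10, the highest in miR-451, it was at 15.96 CPM, the lowest of its group.

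Ranked by Pearson r with miR-451 over the 12 libraries, as a description, the leading 6 of 339 were the 6 called sequences: dre-miR-451_R-3_1ss1AT (r = 0.883), dre-miR-2188-5p_R+1 (0.875), PC-3p-3965_216 (0.863), pol-miR-144-5p_1ss11TA (0.853), dre-mir-451-p3_1ss6TC (0.838) and fru-miR-144_L+1R-1 (0.817). No other sequence had an r over 0.8, and the median r was 0.02. After them came ssa-miR-29b-2-5p_L-2 (0.774), dre-miR-29b (0.714), dre-miR-2188-3p_L+1_2ss13TC14AG (0.704) and the leukocyte miRNA dre-miR-142a-5p (0.697). PC-5p-5196_150 was 46th (0.389). These points share libraries and their scaling.

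At the other end stood dre-miR-92b-3p_R+1 (r = −0.855), dre-let-7i (−0.799), dre-miR-15b-3p_L+1_1ss3GA (−0.723), dre-miR-22a-5p_R-1 (−0.711) and dre-let-7a (−0.691). The slopes of dre-let-7i (−0.49, SE 0.12, adjusted p = 0.0915) and dre-miR-92b-3p_R+1 (−0.45, SE 0.13, adjusted p = 0.209) did not pass, nor did that of ssa-miR-29b-2-5p_L-2 (0.77, SE 0.19, adjusted p = 0.0915). Levels are shares of a library, and the part of this in the negative values was not tested. Of all miRNA counts, dre-miR-451_R-1 itself made up from 0.0550% (highCHO fish 45) to 0.265% (fasted fish 10). Members of let-7 differ by few bases, so how reads were divided among them is uncertain.

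Nearest to miR-144 were dre-miR-451_R-1 (r = 0.817), dre-mir-451-p3_1ss6TC (0.804), dre-miR-2188-5p_R+1 (0.758), dre-miR-451_R-3_1ss1AT (0.702) and pol-miR-144-5p_1ss11TA (0.698). The partner arm of miR-144, dre-miR-2188-5p_R+1 and 2 minor pieces of the miR-451 hairpin were thus among the nearest 5 of both members.

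**Figure D5:**
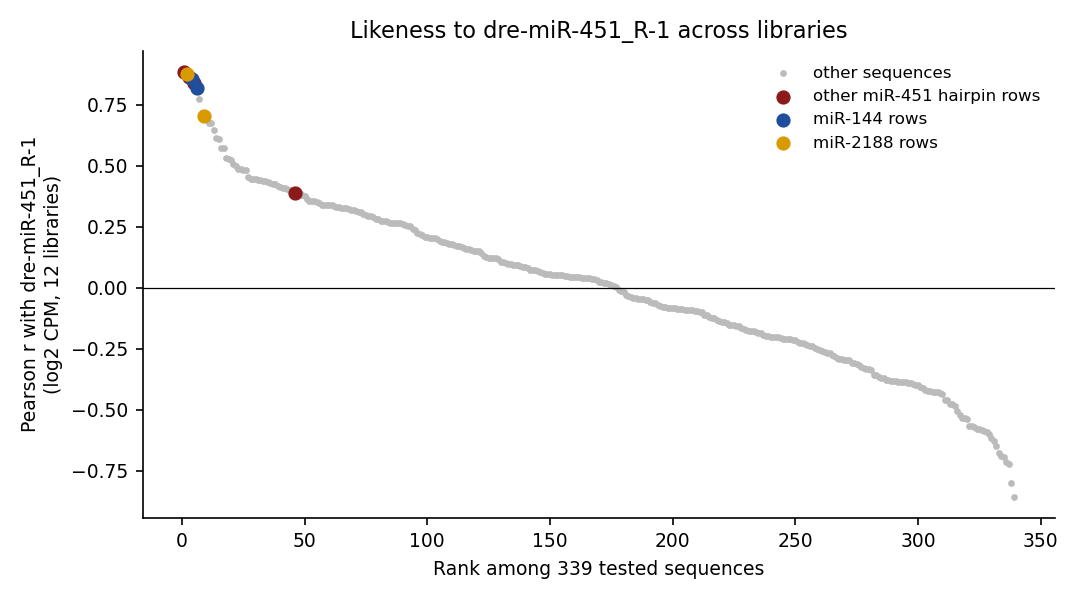
Pearson r of each of 339 sequences with dre-miR-451_R-1 over the 12 libraries (log2 CPM), in rank order. Pieces of the miR-451 hairpin (red), miR-144 (blue) and miR-2188 (yellow) fill the first 6 ranks, and PC-5p-5196_150 is the red point at rank 46.

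Other blood and tissue cells were followed through lists of their miRNAs. All 13 tested sequences of the leukocyte list (miR-142, miR-223, miR-150, miR-155 and miR-146) had a positive slope on miR-451, with a median of 0.36 against 0.01 over all 339, and 0 passed. The share of positive slopes over all 339 was not counted. The 13 leukocyte sequences come from 5 families and the same 12 libraries, so their signs are not independent. The largest of them by level, ssa-miR-146a-5p, had a slope of 0.36 (SE 0.23, adjusted p = 0.782), and dre-miR-142a-5p one of 0.36 (SE 0.14, adjusted p = 0.524). The summed level of the list was 31205 to 52877 CPM in fasted, 19432 to 47317 in noCHO and 24038 to 58165 in highCHO fish. It had an r of 0.357 with miR-451 (permutation p = 0.25, adjusted p = 0.936, n = 12) and of 0.675 with miR-144 (permutation p = 0.0177, adjusted p = 0.133, n = 12), and neither passed the adjustment. For miR-144 the rho was 0.692 (permutation p = 0.0154, adjusted p = 0.116), and without noCHO fish 20 and highCHO fish 38 r was 0.623 (permutation p = 0.0573, n = 10). Most of this sum was ssa-miR-146a-5p, with means of 34801 CPM in fasted, 25424 in noCHO and 40811 in highCHO fish. By itself ssa-miR-146a-5p had an r of 0.646 with miR-144, so the sum is no even measure of the list. dre-miR-142a-5p differed in its order, with means of 1998, 1577 and 1245 CPM in the same groups.

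The remaining lists gave no called slope. Positive slopes were found in 3 of 3 thrombocyte and endothelial, 6 of 12 hepatocyte, 10 of 14 fibroblast and smooth muscle, 3 of 3 pancreas, 0 of 4 epithelial and 0 of 3 muscle sequences. Signs within a list are not independent, since the sequences share libraries and, in most lists, families. The 3 thrombocyte and endothelial sequences are all of miR-126. Among highCHO fish, the pancreas sum was far higher in fish 38 (12572.6 CPM, others 63.1 to 132.7). Summed hepatocyte miRNAs had an r of −0.203 with miR-451 and of −0.153 with miR-144 (permutation p = 0.531 and 0.636, adjusted p = 0.936 for both, n = 12). The thrombocyte and endothelial sum had −0.120 and 0.0899 (permutation p = 0.723 and 0.794), and the fibroblast and smooth muscle sum 0.0788 and 0.270 (permutation p = 0.811 and 0.401), each with adjusted p = 0.936.

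Library quality was compared in the same way. The percentage of inserts under 15 nt had an r of −0.225 with miR-451 and 0.245 with miR-144 (permutation p = 0.506 and 0.467). The miRNA percentage of mappable reads had −0.0138 and −0.166 (permutation p = 0.967 and 0.606), and the log2 total count −0.0533 and −0.326 (permutation p = 0.874 and 0.313). None passed the adjustment (adjusted p = 0.936 to 0.967).

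A last comparison set the calls of the whole table beside the level of dre-miR-451_R-1. It was added after the data were seen and puts log2 CPM of miR-451 into the model as a term. In highCHO against fasted fish 13 sequences were then called, all of them among the 21 called without the term. In highCHO against noCHO fish the 8 calls stayed the same 8. For both refed groups against fasted, 1 of the 7 calls remained. In noCHO against fasted fish 0 were called with or without the term. The term also takes 1 of the 9 residual degrees of freedom, and its own part in the lost calls was not tested.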

How the data were processed

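Per the labels, liver RNA was extracted with Trizol, made into libraries with a TruSeq RNA kit and read on an Illumina GAIIx. Bowtie 1.1.1 is named in the submitters' processing notes, with no role. Which genome, which miRNA database and which rule for dividing shared reads were used is not stated in the sources used here. One deposited table gave read counts per library by step of the authors' processing (raw, adapter-containing, short and mappable reads). A second table, deposited with it, gave an estimated count for each miRNA sequence in each library, in which 85.1% of values were exactly whole and the rest were fractions. The same table held a normalized signal, which the authors deposited and which was not used here. The table held 0 sample columns outside the 12 libraries.

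Groups were taken from the labels, which do not say that the fish were independent in every respect (tank, day), so p-values measure the spread between these samples. After rounding, estimated counts were analysed in R 4.3.3 with edgeR 4.0.16 (quasi-likelihood test, TMM scaling, filter by expression within group), which kept 340 of 1696 sequences (291 known names and 49 candidates, out of 988 and 708) and 99.87% of counts. All 12 libraries entered 1 fit with 9 residual degrees of freedom, with a common biological coefficient of variation of 0.411. Tests were two-sided, with Benjamini-Hochberg adjustment over all sequences tested and a threshold of 0.05. SE and intervals were derived from each F statistic and log2 change. The slope test used centred log2 CPM (prior count 1) of miR-451 with group in the model and miR-451 itself left out. Relations across libraries used 100000 permutations, or all arrangements within groups (13824) or of 6 libraries (720). Group ratios used all 70 arrangements of 4 against 4. The code was first run on simulated data with less spread between libraries than here, which says nothing of the power in these data. Hairpin pieces were found by sequence and folded with RNAfold 2.7.2. No reference holding miRNA coordinates was used here, so no positions are given.

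The members and lists were chosen with earlier results of these data known. Named sequences are both members, the other pieces of their hairpins, the 10 most and 5 least like miR-451 and the 5 most like miR-144 by Pearson r. Added to these are up to 10 per direction past the threshold in the slope test, and the most abundant of the red cell, leukocyte and hepatocyte lists. No sequence is named for its place on the other cell type lists. dre-miR-2188-3p_L+1_2ss13TC14AG and dre-miR-122_R-1 also hold places under this rule. Lists went by family number in the name: red cell, leukocyte, thrombocyte and endothelial, hepatocyte, fibroblast and smooth muscle, pancreas, epithelial, and skeletal and cardiac muscle. Counting precision is not the limit for the members at 212 counts or more, and since the reads carry no molecular identifiers, such precision covers counting error only. Alternatives were other scalings and filters, DESeq2 1.42.0, only the groups compared, summed families, terms for library set or short inserts, and each library left out.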

Additional observations from a re-analysis of the deposited data

Results flagged for a closer look

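Of 72 groups of 4 libraries checked for a fish far from the other 3, 7 were picked out, and chance picks out about 1 in 20. Among noCHO fish, number 31 stood apart in dre-miR-451_R-1 (2026.79 CPM, others 787 to 898), in fru-miR-144_L+1R-1 (1438.22 CPM, others 573 to 705) and in the summed red cell list (3803.89 CPM, others 1487 to 1746), which holds both. In the summed fibroblast and smooth muscle list noCHO fish 21 was low (43720.1 CPM, others 62684 to 63235). In the pancreas list fasted fish 7 (266.798 CPM, others 61.6 to 81.5) and highCHO fish 38 (12572.6 CPM, others 63.1 to 132.7) were high. In the skeletal and cardiac muscle list noCHO fish 20 was high (341.85 CPM, others 107 to 118). Of these fish, highCHO fish 38 also had the lowest fru-miR-144_L+1R-1 of its group (680 CPM) and the highest ratio of miR-451 to miR-144 of all 12 (1.57).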

How the results depend on the processing

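No paired analysis was possible because fish numbers are not shared between groups. The alternative fits gave 166 values for the member comparisons, several from each fit. Of these values, 0 passed the threshold (smallest adjusted p = 0.233) and 6 turned the sign. Leaving out 1 library each, the log2 change of miR-451 ran from −0.89 to −0.12 (noCHO against fasted), −0.81 to −0.18 (highCHO against fasted), −0.31 to 0.36 (highCHO against noCHO) and −0.74 to −0.15 (refed against fasted). For miR-144 the ranges were −0.93 to −0.14, −0.36 to 0.28, 0.21 to 0.80 and −0.54 to 0.068. Values with library set or short inserts as a term stand in the report; under sample totals the miR-144 change was −0.36 (highCHO against fasted) and −0.52 (refed against fasted). The turned signs were those of miR-144 in highCHO against fasted without fasted fish 10 (0.28) or highCHO fish 38 (0.03), of miR-144 in refed against fasted without fasted fish 10 (0.0677), and of miR-451 in highCHO against noCHO without noCHO fish 31 (0.36) or highCHO fish 45 (0.04) or 49 (0.02). The log2 ratio ran from −0.02 to 0.15 for noCHO against fasted (−0.0167 without fasted fish 13), −0.63 to −0.23 for highCHO against fasted and −0.70 to −0.30 for highCHO against noCHO (−0.70 without highCHO fish 38, exact permutation p = 0.0286). For highCHO against noCHO, leaving out any other fish gave an exact permutation p from 0.229 to 0.286. The relation of both members had r = 0.663 within set 2 (exact permutation p = 0.161, n = 6, against 0.970 within set 1, also n = 6; the cause was not tested) and 0.732 to 0.895 with 1 library left out. The 6 calls of the slope test became 0 to 8 with 1 library left out, 0 with library set as a term, 0 with miR-144 in place of miR-451 and 2 without the other miR-451 hairpin sequences; the cause was not tested. They were the same 6 under median-ratio scaling and under sample totals, and all 6 were among 7 without the group term. With a filter at a mean count of at least 100, 4 of 163 sequences were called, all of them among the 6. That filter removed dre-mir-451-p3_1ss6TC (4 to 56 counts per library) and PC-3p-3965_216 (1.5 to 43). DESeq2 called 33, 19 and 11 sequences where edgeR called 21 (highCHO against fasted), 8 (highCHO against noCHO) and 7 (refed against fasted). The 197684 counts of highCHO fish 49 limit rare hairpin pieces there to 15 counts (miR-144 partner arm) or fewer.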
